A study of Homo sapiens with 7 samples.

Results

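The first step of a cardiac differentiation was followed here at the level of DNA methylation, from wild-type (WT) human embryonic stem cells (SC, day 0) to cells labelled cardiac mesoderm (CME, day 3). The comparison holds 2 of the 7 libraries of the study, 1 per stage, and they were chosen by their labels. Each culture was of HUES8, a line of human embryonic stem cells long established in culture. CME cells had been started at 40% confluence in a basal medium with B27 supplement lacking insulin and 6 uM CHIR99021, which activates Wnt signalling, and CHIR99021 was taken out on day 2. The Wnt antagonist IWP2 (5 uM) enters the protocol on day 3, and whether the CME cells were taken before or after it was added is not stated by the labels. The other libraries, used only to place the results, are WT cardiac progenitors (CP, day 8), WT cardiomyocytes (CM, day 14 in the series text and day 15 in the sample's description; its stage label says cardiomyocyte, while its source label names CME), and SC, CME and CP stages of HUES8 cells labelled TET1/2/3 KO (TKO); no label says whether the TKO cells are a single clone. Methylation calls carry no expression, so neither the cell identity nor the knockout was checked against marker genes.

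Methylation of cytosine in CpG pairs is written by the DNMT enzymes and, in dividing cells, copied to the new strand. TET enzymes oxidise it, which is a step towards unmethylated cytosine. Most CpGs of human cells are methylated, while the dense CpG clusters at many gene starts are not, and regulatory elements that open during differentiation often lose methylation. Cardiac mesoderm passes through a primitive streak state in which Wnt signalling turns on T-box and homeobox factors such as TBXT, EOMES and MIXL1. Enhanced reduced representation bisulfite sequencing, the assay used, reads CpG-rich fragments and shows methylated cytosine as C and unmethylated cytosine as T; oxidised 5-hydroxymethylcytosine is also read as C.

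Both strands of each CpG were summed, CpGs with 10 or more reads in both files were kept, and the level is the share of C among C and T reads. The files shared 2221313 of the 2424457 CpGs that either covered (91.6%), with a median of 42 reads in SC and 49 in CME. Across CpGs, the read numbers of the pair correlated at r = 0.944 on the log scale and the levels at r = 0.988, the highest values among the 21 pairs of libraries. By the share of CpGs covered in both, 4 other pairs stood higher, up to 93.0%. The share of C at mitochondrial CpGs, a measure of unconverted cytosine, was alike in the pair (1.46% in SC and 1.44% in CME) and lay between 0.139% and 0.387% in the other 5 libraries. There were 105528 bins of 1 kb with 5 or more such CpGs (median 9), and these are the units described below. With 1 library per stage, every test below compares libraries, and no difference can be set against the spread of replicates.

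The sequences that follow come from promoters. The first 4 belong to promoters with some of the largest rises of methylation between SC and CME, and the last pair to TBXT and MIXL1, mesoderm genes whose promoters were almost free of methylation in both libraries. Each runs 5′ to 3′ in the direction of the gene over the 250 bases before its start, from RefSeq (GRCh38.p14); capitals mark the CpGs with 10 or more reads in both libraries.
MIR200BHG: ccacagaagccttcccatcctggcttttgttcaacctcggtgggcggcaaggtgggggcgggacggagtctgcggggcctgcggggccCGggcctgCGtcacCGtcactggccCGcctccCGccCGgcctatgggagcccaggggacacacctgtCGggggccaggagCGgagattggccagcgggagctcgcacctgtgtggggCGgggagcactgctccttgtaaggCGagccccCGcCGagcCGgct
DPEP3: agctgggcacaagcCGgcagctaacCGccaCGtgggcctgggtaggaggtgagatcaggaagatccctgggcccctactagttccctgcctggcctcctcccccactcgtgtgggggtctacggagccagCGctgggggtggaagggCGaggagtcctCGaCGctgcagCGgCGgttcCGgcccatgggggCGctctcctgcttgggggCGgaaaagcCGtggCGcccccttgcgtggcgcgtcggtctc
PLSCR2: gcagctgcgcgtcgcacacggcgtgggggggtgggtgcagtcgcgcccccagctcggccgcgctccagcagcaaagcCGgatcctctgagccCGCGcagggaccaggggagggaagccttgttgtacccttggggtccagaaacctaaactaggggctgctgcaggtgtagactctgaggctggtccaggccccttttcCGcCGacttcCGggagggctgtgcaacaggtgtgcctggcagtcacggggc
TRPM2: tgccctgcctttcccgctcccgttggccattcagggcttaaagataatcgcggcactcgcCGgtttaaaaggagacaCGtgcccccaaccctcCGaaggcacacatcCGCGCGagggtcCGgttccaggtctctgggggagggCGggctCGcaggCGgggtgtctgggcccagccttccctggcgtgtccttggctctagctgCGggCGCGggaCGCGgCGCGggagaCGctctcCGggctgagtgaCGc
TBXT: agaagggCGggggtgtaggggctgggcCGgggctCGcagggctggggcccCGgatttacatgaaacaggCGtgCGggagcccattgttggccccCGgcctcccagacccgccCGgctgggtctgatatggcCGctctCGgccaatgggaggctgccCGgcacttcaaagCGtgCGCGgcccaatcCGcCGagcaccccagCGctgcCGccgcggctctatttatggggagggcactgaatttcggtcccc
MIXL1: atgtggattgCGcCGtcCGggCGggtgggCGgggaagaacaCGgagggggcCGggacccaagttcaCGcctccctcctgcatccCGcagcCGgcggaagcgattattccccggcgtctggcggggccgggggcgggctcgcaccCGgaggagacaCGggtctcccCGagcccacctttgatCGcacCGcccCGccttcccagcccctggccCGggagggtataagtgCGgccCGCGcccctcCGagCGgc
Their positions, found on the CpG coordinates of the files (hg19), are chr1:1098007-1098256 (plus strand) for MIR200BHG, chr16:68014403-68014652 (minus) for DPEP3, chr3:146187349-146187598 (minus) for PLSCR2, chr21:45769774-45770023 (plus) for TRPM2, chr6:166581340-166581589 (minus) for TBXT and chr1:226411115-226411364 (plus) for MIXL1. In the MIR200BHG stretch, 11 of the 13 CpGs in capitals were higher in CME, with single CpGs at 32.6% to 81.0% in SC and 37.2% to 84.4% in CME. The 20 measured CpGs of TRPM2 lay between 6.52% and 52.6% in SC and between 13.3% and 78.3% in CME, and 18 of them were higher in CME. The 18 measured CpGs of TBXT reached at most 8.77% in SC and 9.47% in CME, and the 22 of MIXL1 at most 10.3% and 7.81%.

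Few bins changed much. The median difference, CME minus SC, was 0.33 percentage points, 87.6% of the bins differed by less than 5 points and 97.8% by less than 10. At an adjusted p below 0.01 (Fisher's exact test on reads, two-sided, Benjamini-Hochberg over all bins) and a difference of 25 points or more, 33 bins were higher in CME (0.0313% of the bins tested) and 17 were lower (0.0161%), together 50 (0.0474%). Without the size limit, 2827 bins were higher (2.68%) and 334 lower (0.317%). Of all bins, whether past the test or not, 59.3% were higher in CME and 40.6% lower. Near the 25-point limit, the last bin inside stood at 25.02 points and the first outside at 24.99.
A read over several CpGs is counted once per CpG. When the reads of a bin were scaled to the mean coverage of 1 of its CpGs, no bin passed both limits.

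Bins that gained methylation began at low to intermediate levels. The 33 bins lie in 31 separate regions on 13 chromosomes and rose from a median of 24.1% in SC (lowest 7.70%, highest 63.3%) to 51.4% in CME (lowest 37.3%, highest 89.3%). Of their 576 CpGs, 562 were higher in CME, a count that only describes the bins, since they were chosen on these same reads. The number of CpGs per bin ran from 5 to 118, with 15 bins holding 10 or more. Both strands could be read in 29 of these bins, and in all 29 both strands were higher in CME, although the strands share the call itself. By their hg19 positions, 15 of the 33 bins lie downstream of a placed gene start and within the length that RefSeq gives that gene. Of the 33, 1 bin lies within 2 kb of a placed start. The shares of all tested bins placed in these ways were not counted. The length was counted from the placed start, which need not be the gene's first, and exons and introns were not assigned.

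The largest rise was in TNRC18, which encodes a large nuclear protein with a chromatin-reading domain. The bin chr7:5428001-5429000, 34.96 kb downstream of the gene's placed start, held 118 CpGs and 7053 reads in SC and 6563 in CME, summed over CpGs. Its level was 24.4% (95% Wilson interval 23.4% to 25.4%) in SC and 58.2% (57.0% to 59.4%) in CME, a difference of 33.8 points (95% interval 32.3 to 35.4). All but 1 of its 118 CpGs were higher in CME, and 24 of them passed the test singly, more than in any other bin. It stood at 63.7% in CP, 66.5% in CM, and at 88.6%, 91.6% and 94.6% at TKO stages SC, CME and CP, so SC was the lowest of the 7 libraries. The bin just before it was already methylated, at 85.4% in SC and 93.7% in CME. A second bin of TNRC18, chr7:5389001-5390000, 74.0 kb from the start, rose from 19.1% to 47.9% and was at 45.2% in CP and 37.9% in CM.

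GAD1, which makes the neurotransmitter GABA from glutamate, held the second largest rise. In chr2:171679001-171680000, 6.10 kb downstream of its placed start, the level was 7.70% (5.94% to 9.94%) in SC and 40.4% (37.1% to 43.9%) in CME over 16 CpGs. The rise reached beyond the bin: the next bin on one side went from 6.57% to 29.5% and the next on the other side from 6.33% to 21.7%, and a bin 3 kb away from 5.22% to 20.4%, each past the adjusted p but short of 25 points. The bin then read 25.3% in CP and 19.5% in CM, and in TKO cells 47.9%, 65.7% and 65.8% at SC, CME and CP. SC was again the lowest library, and CM the next lowest.

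TRIO, a guanine nucleotide exchange factor, and ZNF672, a zinc finger gene, each held a pair of neighbouring called bins. At TRIO (chr5:14487001-14488000, 344 kb downstream of the placed start of a gene of 367 kb) the level was 19.2% in SC, 51.3% in CME, 32.8% in CP and 42.1% in CM, against 85.0%, 88.5% and 91.2% at TKO stages SC, CME and CP. The adjoining bin rose from 18.7% to 48.5%. At ZNF672 (chr1:249141001-249142000, 9.08 kb from the start) the level was 18.4% in SC, 50.3% in CME, 49.8% in CP and 61.3% in CM, against 90.7%, 95.1% and 96.1% in the TKO libraries. All 29 CpGs of this bin were higher in CME, and the next bin rose from 28.2% to 56.9% with all 33 of its CpGs higher.

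MINK1, a kinase of the Ste20 family, had a bin (chr17:4763001-4764000, 26.9 kb from its start) that rose from 18.7% to 50.9% over 15 CpGs, all higher in CME. That bin went on to 70.7% in CP and 78.7% in CM, still below the 92.5%, 91.2% and 94.97% of TKO stages SC, CME and CP. STX2, a syntaxin of vesicle fusion, had 5 CpGs (chr12:131310001-131311000) that rose from 17.4% to 47.6%. NAP1L4, a histone chaperone, had 5 CpGs (chr11:2966001-2967000, 46.5 kb to 47.1 kb from its 3 placed starts) that rose from 15.5% to 45.4% and stood at 10.5% in CP and 16.5% in CM, back near the SC level.

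The other bins among the 12 largest rises lie outside the RefSeq lengths of placed genes. The bin chr13:100628001-100629000, 4.34 kb before the start of ZIC5 and 5.54 kb before that of ZIC2, a pair of zinc finger factors of neural development, rose from 18.97% to 50.7%. It held only 5 CpGs with 58 and 71 reads, the fewest reads of any called bin, and an adjusted p of 0.00783 in Fisher's exact test, a call that was lost when bins of 3 or more CpGs were tested. The bin chr16:51169001-51170000 rose from 8.26% to 39.5%, chr2:119566001-119567000 from 20.2% to 50.9%, and chr2:6121001-6122000 from 49.7% to 80.2%, each over 6 CpGs. At the first of these, TKO SC was as low as WT SC, at 5.68%, and TKO CME stood at 24.8%.

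Further down the order, the wide bins matter for their CpG number. A bin of SEMA6C, a semaphorin, held 83 CpGs (chr1:151105001-151106000, 13.6 kb from the start), and all 83 were higher in CME, from 11.4% to 37.3% for the bin; CP was at 14.8% and CM at 29.1%. CUX1, a homeobox factor, had 40 CpGs (chr7:101891001-101892000) that rose from 27.6% to 57.4%, and the next bin rose from 47.2% to 70.04%. The gained bin nearest to a placed gene start was chr5:174872001-174873000, 1.32 kb before that of the dopamine receptor gene DRD1. This bin rose from 29.0% to 55.7% while the bin beside it, with 75 CpGs, stayed at 2.42% and 2.04%. Over all gained bins, the 20 uncalled bins that directly adjoin one had a median difference of 8.37 points.

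**Figure D1:**
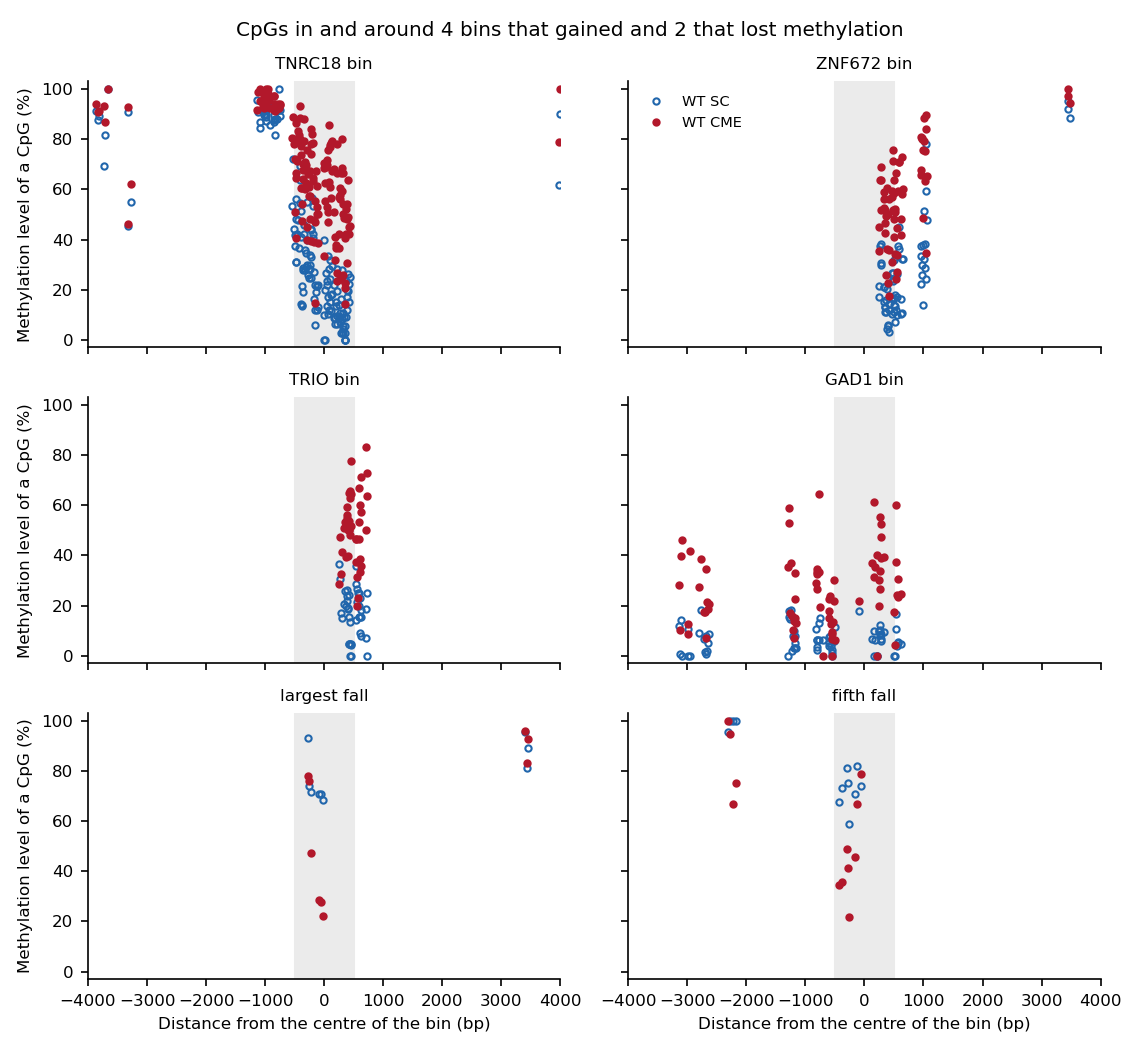
Methylation level (%) of single CpGs with 10 or more reads in both libraries against the distance in bp from the centre of the bin, for WT SC (open blue) and WT CME (filled red); the grey band is the called bin. In the TNRC18 bin the filled points lie above the open ones from edge to edge, from 24.4% to 58.2% for the whole bin, and in the GAD1 bin the rise runs on into the neighbouring bins.

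Bins that lost methylation were shorter and began high. All 17 held 5 to 9 CpGs, and their median level went from 73.6% in SC (lowest 50%, highest 95.5%) to 44.8% in CME (lowest 24.4%, highest 69.0%). Bins of 5 to 9 CpGs made up 51.7% of those tested. Of the 107 CpGs in the lost bins, 100 were lower in CME, and in all 14 bins read on both strands both were lower. The bins were chosen on these same reads, so these counts only describe them. The 5 uncalled bins that directly adjoin one had a median difference of -0.14 points. Of the 17 lost bins, 4 lie within the RefSeq length of a gene, counted from a placed start, and 2 within 2 kb of a placed start. The shares of all tested bins placed in these ways were not counted. A placed start need not be the gene's first, so a bin so counted can lie past the gene's end. Of the 17, 2 are on chromosome 8, for which no gene was placed.

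The largest fall was at chr20:1813001-1814000, 269 kb from the nearest placed gene start, that of the kinase gene STK35. Its 6 CpGs read 73.6% (67.5% to 78.9%) in SC and 39.3% (34.1% to 44.7%) in CME, a fall by 34.3 points (95% interval of the difference -41.7 to -26.2). It stood at 23.4% in CP and 25.1% in CM, and at 80.3%, 66.7% and 81.1% at TKO stages SC, CME and CP. Among the 7 libraries the 3 differentiated WT ones were the lowest. The second, chr20:43152001-43153000, 1.79 kb before the start of SERINC3, a membrane protein gene, fell from 86.5% to 54.6%, while a bin 2 kb away stayed at 1.20% and 1.54%. With each CpG weighted equally it fell by 18.4 points, under the limit.

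Several of the other falls ended near 0 in later stages, although CP covered only 3 or 4 CpGs of the first 3 of these bins. The bin chr15:60907001-60908000 read 53.2% in SC and 25.3% in CME, then 0.769% in CP and 1.90% in CM, and 83.4%, 68.8% and 86.1% at TKO stages SC, CME and CP. The bin chr6:166682001-166683000 fell from 63.5% to 35.9%, and stood at 2.15% in CP and 1.05% in CM. Its nearest placed start, 38.5 kb away, was that of LOC107986669. A placed start of RPS6KA2, a ribosomal S6 kinase gene, lay 358 kb away, and whether the bin lies in that gene was not established. The 7 CpGs of chr7:131308001-131309000 fell from 84.0% to 57.5% and were at 1.51% in CP and 1.53% in CM. The nearest placed start, 296 kb away, was that of MKLN1, which encodes muskelin, and whether the bin lies in the gene was not established. With equal weight per CpG the bin fell by 22.4 points, under the limit. The bin chr1:154786001-154787000 fell from 70.3% to 39.9% and was at 1.42% in CP and 10.9% in CM. A bin on chromosome 8 fell from 72.8% to 45.6% and stood at 4.65% and 5.54% in CP and CM.

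The remaining bins among the 12 largest falls took other courses. The bin chr10:81024001-81025000 fell from 74.7% to 42.9% and was at 32.8% in CP, and chr15:69887001-69888000 from 73.4% to 44.8% and 26.9%. The bin chr2:10618001-10619000, 30.05 kb before the nearer start of ODC1, the rate-limiting enzyme of polyamine synthesis, fell from 85.9% to 58.4% and was at 16.96% in CP; with CpGs of 20 or more reads it fell by 23.01 points, under the limit. In chr1:152488001-152489000 the level fell from 53.2% to 25.2% over 6 CpGs. CP was higher again, at 35.7% over the same 6 CpGs and 38.4% over the 14 that it covered. The bin chr14:106129001-106130000 fell from 95.5% to 69.0% over 6 CpGs on 67 and 71 reads. It read 78.8% in CP and 79.5% in CM over 3 CpGs. No CpG of this bin was covered in all 7 libraries, so its later course cannot be read from these levels. Next in the order, and chosen after its values were seen, a 5-CpG bin just inside SERPINB9, an inhibitor of granzyme B (chr6:2902001-2903000, 1.04 kb from the start), fell from 63.6% to 37.4% and was lower still in CP at 10.5%. It is set apart from the rest by TKO levels that were low as well, at 31.3%, 16.5% and 11.8%.

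After CME, most gained and most lost bins alike stood lower in CP. Over the CpGs shared by all 7 libraries, 10 lost bins had 5 or more CpGs, and their median level was 73.6% in SC, 41.9% in CME, 20.2% in CP and 24.2% in CM; CP was below CME in 9 of the 10. The 26 gained bins so covered had medians of 21.6%, 52.0%, 40.2% and 45.8%. CP was below CME in 20 of the 26, and at or below SC in 3. In TKO SC the same gained bins stood at a median of 82.3% and the lost bins at 82.9%, and in TKO CP at 92.9% and 81.9%. These levels are set side by side without a test, since CP minus CME shares the CME library with the comparison that chose the bins. Over the 1936324 CpGs covered in both libraries, CP minus CME had a mean of -3.24 points and a median of 0. The share of all bins with CP below CME was not counted.

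**Figure D2:**
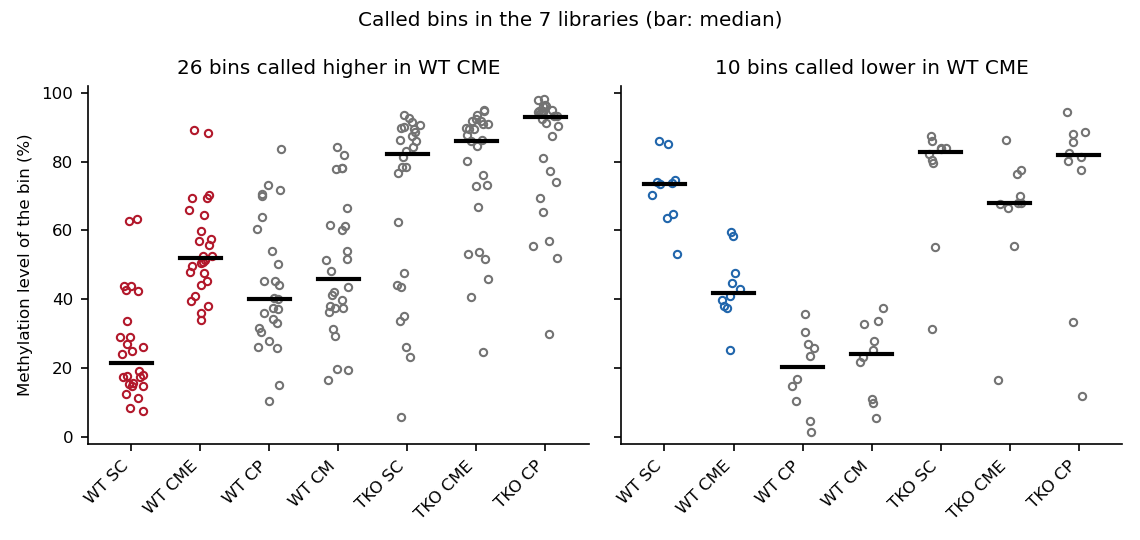
Methylation level (%) of each called bin in the 7 libraries over the CpGs read 10 or more times in all of them, left for 26 bins called higher in WT CME and right for 10 called lower; bars are medians. The gained bins moved from a median of 21.6% in WT SC to 52.0% in WT CME and stand at 82.3% in TKO SC, and the lost bins go on to 20.2% in WT CP.

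The same step in the knockout shares no library with the WT pair. Over the 96462 bins with 5 or more CpGs covered in all 4 libraries, TKO CME minus TKO SC called 25 bins higher (0.0259%) and 27 lower (0.028%) at both limits, and 9.69% higher and 6.53% lower at the adjusted p alone. Of the 31 WT gains measured there, 26 were also higher in TKO CME, against 53.4% of all bins, and 15 passed the adjusted p, with a median difference of 4.78 points. One gain (chr6:34654001-34655000) passed in the other direction and fell by 9.93 points in TKO cells. Of the 13 WT losses, 10 were also lower in TKO CME and 8 passed, with a median of -11.98 points. Over all bins, 38.6% to 48.5% were lower in TKO CME in each class of TKO SC level up to 95%. Only 1 WT gain, the NAP1L4 bin, was called in TKO cells, at 29.0 points.

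How far a TKO bin could rise depended on its TKO SC level. In 19 of the 31 gains TKO SC was already above 75%, so that a rise of 25 points was not possible, and there the median TKO difference was 2.30 points. Such levels were common: of all 96462 bins, 56229 were at 80 to 95% in TKO SC and 1416 at 95 to 100%. In the other 12, all were higher in TKO CME, by 9.61 to 29.0 points (median 17.0), and 9 passed the adjusted p. Over all bins, 52.4% to 61.4% were higher in TKO CME in each class of TKO SC level up to 80%. The GAD1 bin was among the 12, at 18.9 points in TKO against 33.5 in WT over the CpGs of all 4 libraries, as was the SEMA6C bin at 19.7 against 24.7. The step differed between genotypes by 25 points or more at an adjusted p below 0.01 (z test on reads) in 13 gains and 4 losses. Of all bins 0.104% did so, 0.0622% with a lower step in TKO and 0.0415% with a higher one. The bins were chosen by their WT step, which enters this difference, so the counts describe them and support nothing. All 13 of these gains had TKO SC above 75%. The part of this starting level in the difference was not tested.

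**Figure D3:**
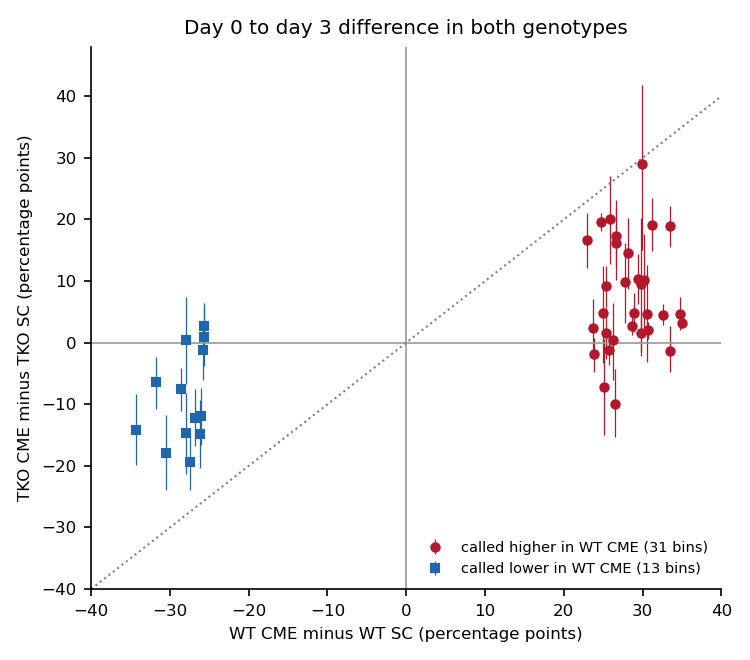
Difference between day 3 and day 0 in percentage points for the called WT bins measured in all 4 libraries, WT on the horizontal axis and TKO on the vertical axis with its 95% interval; the dotted line marks equal differences. The 31 gains have a median of 4.78 points in TKO and the 13 losses of -11.98 points, and most points lie nearer to 0 than the dotted line.

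Single CpGs were tested in the same way. At an adjusted p below 0.01 and 25 points, 274 CpGs were higher and 38 lower of 2221313 (0.014%). The higher ones went from a median of 15.9% to 55.5%, and the lower ones from 74.6% to 28.1%. They fall in 169 windows of 1 kb, 55 of which held 2 or more, and in none of the 55 did called CpGs go both ways. Of the called CpGs, 92 lie in called bins and 193 in tested bins that were not called; 17 of the 33 gained bins and 5 of the 17 lost bins hold at least 1. The called CpGs had a median of 96 reads in SC against 42 over all CpGs, so what could be called depended on depth.

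Some clusters of called CpGs lie in bins short of 25 points. In TBKBP1, an adaptor of TBK1 signalling, 8 CpGs (chr17:45786001-45787000) went from a mean of 13.9% to 50.2%, while the bin of 77 CpGs rose from 17.0% to 36.8%. In COL9A2, a collagen gene, 7 CpGs (chr1:40769001-40770000) went from 23.02% to 60.5%; this is the bin that stood just outside the limit. In ZSCAN30, a zinc finger gene, 5 CpGs (chr18:32847001-32848000) went from 9.55% to 44.95%. The second CUX1 bin held 6 called CpGs, from 14.3% to 72.6%. A cluster that fell, 3 CpGs in chr17:9054001-9055000, went from 79.7% to 36.3%, while the bin fell by 14.6 points. These clusters were chosen after their values were seen.

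Below the level of single loci there was a small upward shift that depended on the starting level. Bins at 0 to 5% in SC had a median difference of 0.07 points, and those at 5 to 20%, 20 to 40% and 40 to 60% of 0.89, 1.92 and 2.40 points. Above that it became smaller, with 1.496 points at 60 to 80% and 0.92 at 80 to 95%. Between 63.6% and 64.9% of the bins in the 5 classes from 5% to 95% were higher in CME. At 20 to 40%, the quartiles of the difference were -1.40 and 6.38 points, so the spread among bins was wider than the shift. The share of bins past the adjusted p upward was highest at 20 to 40% (14.8% of them) and at 5 to 20% (14.0%), against 0.9345% of those at 80 to 95%. Passing also depends on the CpGs and reads of a bin, and high levels leave less room to rise. Bins of 5 to 9 CpGs had a median SC level of 89.6%, and bins of 20 to 39 CpGs of 4.8%.

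The class above 95% in SC went the other way, with a median of -1.18 points. This held only when bins were grouped by the same SC reads that entered the difference, without CME. Grouped by the mean of SC and CME the same range gave 0.33 points, grouped by TKO SC 0.63 points, and grouped by the plus strand of SC and compared on the minus strand 0.67 points. The rise in the middle classes kept its sign under each of these groupings, at 2.16 points for 40 to 60% with the split strands and 1.06 points by TKO SC.

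**Figure D4:**
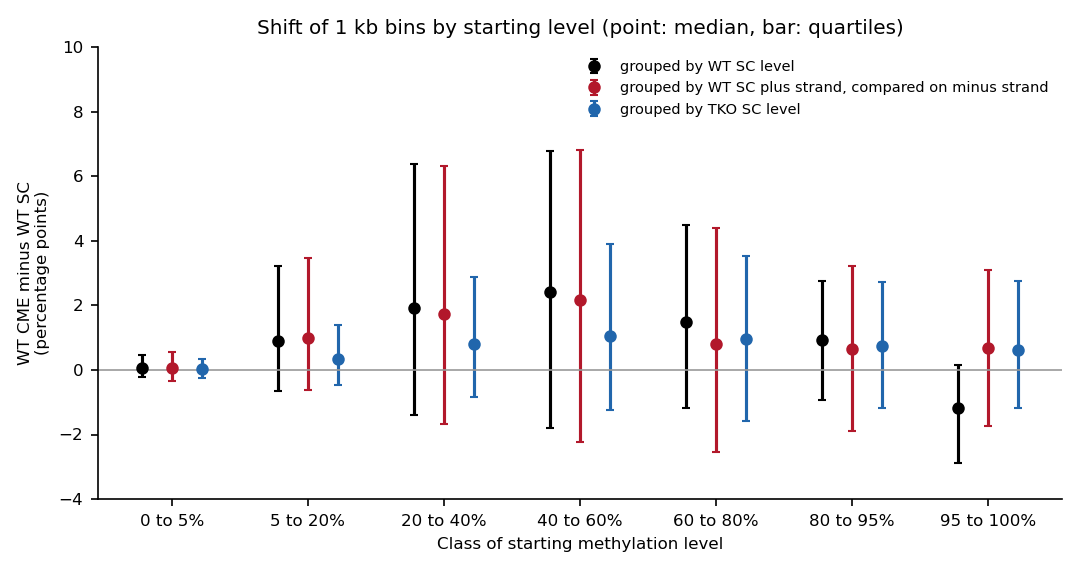
WT CME minus WT SC in percentage points for 1 kb bins in 7 classes of starting level, with points at the median and bars at the quartiles; bins were grouped by WT SC (black), by the plus strand of WT SC and compared on the minus strand (red), or by TKO SC (blue). The median is largest at 40 to 60% when grouped by WT SC, 2.40 points, and only the black point of the highest class lies below 0.

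Levels in other libraries marked bins that moved in opposite directions. Among bins at 70 to 90% on average in SC and CME, the 170 that were under 20% in WT CP had a median difference of -3.40 points between SC and CME, and 70% of them were lower in CME. The 19615 that stayed at 60% or more in CP had a median of 0.82 points. In TKO cells the first set moved by -0.08 points and the second by -0.34. Among bins at 20 to 60% on average, the 1614 that TKO SC held at 80% or more rose by a median of 4.79 points, and the 259 that it held under 20% by 0.32 points. The shift from SC to CME was largest, in these 5 classes of TKO SC level, where TKO SC was most methylated.

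Promoters that could be placed moved little. Placing a window needed 10 or more listed CpGs and a unique place, so promoters poor in CpGs were left out. Of 35116 windows, 12426 were kept. Of 12258 RefSeq promoter windows (10480 genes) placed on the files' CpGs with 5 or more measured CpGs, 90.8% were under 5% in both libraries. Of these windows, 98.2% differed by less than 5 points. Each window runs from 250 bases before to 50 after a gene start. At the adjusted p alone 163 windows were higher in CME (1.33%) and 5 lower (0.0408%), and none reached 25 points. At 10 points or more, 41 were higher (0.334%) and 1 was lower, LOC124904780, from 61.8% to 48.3%, together 0.343%. No placed window overlapped a called bin.

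The largest promoter rise, 24.8 points, was at LINC00554, a long non-coding RNA (chr13:100650114-100650413), from 49.0% to 73.8% with all 13 CpGs higher. It stood at 82.7% in CP and 89.9% in CM, and at 54.6%, 77.9% and 88.7% at TKO stages SC, CME and CP, so both genotypes rose in steps. MIR200BHG, the host gene of microRNAs of the miR-200 family, which hold cells in an epithelial state, followed another course. Its window was at 47.6% in SC, 67.6% in CME, 21.2% in CP and 31.3% in CM, and at 83.5%, 92.1% and 89.95% in the TKO libraries. The difference from SC to CME was 19.98 points (95% interval 14.8 to 25.01; adjusted p = 3.84e-11, Fisher's exact test).

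Most of the other promoters with large rises stood lower in CP than in CME. DPEP3, a membrane dipeptidase gene, read 21.2% in SC, 40.8% in CME, 19.5% in CP and 19.4% in CM. PLSCR2, a phospholipid scramblase gene, read 17.3%, 36.3%, 5.79% and 10.5%. TRPM2, a cation channel gene, read 18.9%, 34.2%, 15.2% and 14.3%, against 90.5% in TKO SC. DNAJA4, a heat shock co-chaperone gene, rose from 24.2% to 40.4% with all 28 CpGs higher. SLC51A, a subunit of a bile acid transporter, rose from 21.4% to 37.4%, and TCL1A, a co-activator of AKT, from 33.7% to 47.9%. Of 39 such windows measured in all 7 libraries, CP was below CME in 38 and below SC in 26. These counts have no test, since the windows were chosen on the CME and SC libraries, whose mitochondrial share of C was also the higher one. Over all CpGs covered in both libraries, the mean of CP minus CME was -3.24 points and of CP minus SC -2.585 points. TKO SC was above 60% in 27 of the 39 and above WT CME in 31. The shares of all windows that did the same were not counted, so these counts only describe the 39. The window with CP above CME was that of LINC00554.

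**Figure D5:**
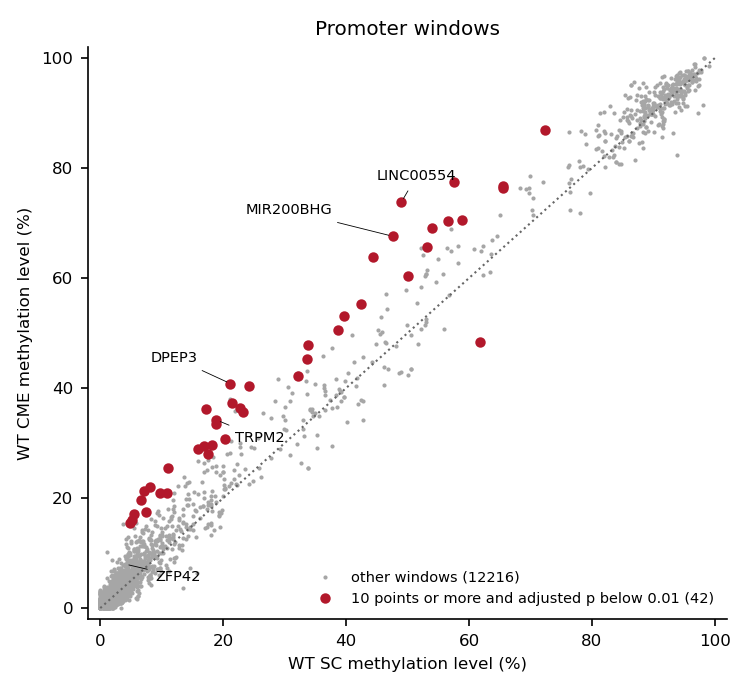
Methylation level (%) of 12258 promoter windows in WT SC (horizontal) and WT CME (vertical); red points differ by 10 points or more at an adjusted p below 0.01, and the dotted line marks equal levels. The 42 red points lie above the line except 1, and the mass of windows lies near 0 in both libraries.

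Promoters of genes tied to the change of state were measured where a window could be placed, for 27 of 71 listed genes (36 windows); 35 of the 36 windows were under 5% in both libraries. Of the mesoderm and primitive streak list, 6 of 14 genes had a window and none passed the adjusted p. TBXT, the T-box factor of the primitive streak, was at 2.22% in SC and 1.53% in CME, EOMES at 1.36% and 0.689%, and MIXL1 at 1.68% and 1.57%. TBX6, HAND1 and KDR, a factor of paraxial mesoderm, a factor of heart and lateral mesoderm and the VEGF receptor of vascular precursors, were between 0.753% and 2.07% in both libraries. Such levels are close to the share of C on mitochondrial DNA in the same libraries (1.46% and 1.44%), so levels near that share cannot be told from 0 here.

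In the pluripotency list, 3 of 13 genes had a window and 1 passed. ZFP42, also called REX1, a marker of the pluripotent state, rose from 3.99% to 8.01% over 21 CpGs (difference 4.02 points, 95% interval 2.45 to 5.62; adjusted p = 8.8e-05, Fisher's exact test), and stood at 6.23% in CP, 7.32% in CM and 10.5% in TKO CP. LIN28B and UTF1 were at 1.63% and 1.32% in SC and at 2.03% and 1.61% in CME. In the cardiac list, 4 of 14 genes had a window and none passed: GATA6, TBX20, TBX5 and ACTN2 were between 0.782% and 3.30%. TBX5, a T-box factor of the heart, was at 2.69% and 3.30% in the pair but at 9.03% in CP and 18.5% in CM.

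None of the 4 placed genes of the WNT list passed, and the 4 differences were all below 0, between -1.19 and -0.49 points. Their levels, 0.693% to 1.99% in the pair, were near the mitochondrial share of C, so no direction is read from these differences. The share of all windows below 0 was not counted. WNT3, a ligand of the primitive streak, was at 1.99% in SC and 0.906% in CME (adjusted p = 0.285, Fisher's exact test). Of the genes that write, copy and remove methylation, DNMT1, DNMT3A, UHRF1, TET2 and TET3 had 10 windows, from 0.556% to 3.05% in the pair, and none passed. The other lineages were likewise flat: 9 windows of PAX6, SOX1, NEUROG1, TAL1 and RUNX1 lay between 0.867% and 3.43%.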

How the data were processed

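Genomic DNA of HUES8 cells was read by enhanced reduced representation bisulfite sequencing, 1 library per genotype and stage. Alignment and methylation extraction were done at a core facility, per the labels' protocols, against hg19, per the submitters' processing notes. Which aligner and caller were used is not given in the sources used here. Per the file headers, the deposited tables give a read count (coverage) per CpG cytosine and strand and the percent of reads with C and with T; the lowest count was 10. Reads with C and T were recovered from count and percent, and came out whole in 100% of lines. Total coverage was 120742115 reads for WT SC and 141999649 for WT CME; the median bin held 413 and 477, and the median half-width of the Wilson intervals over bins was 2.74 points in SC.

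Both strands were summed, CpGs with 10 or more reads in both libraries were kept, and bins of 1 kb with 5 or more CpGs were tested by Fisher's exact test (two-sided) on reads with Benjamini-Hochberg adjustment over all bins. Calls need an adjusted p below 0.01 and 25 points. Differences have Newcombe 95% intervals, and the change of the step between genotypes was tested by a z test on reads. Intervals and tests cover counting error only: reads that span CpGs and PCR copies are not independent. The code was tested on simulated reads. Python 3.11.15, scipy 1.17.1, numba 0.67.0, numpy 2.4.6 and pandas 2.3.3 were used.

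The bins named are the 12 largest rises and 12 largest falls among the called bins, plus others chosen after their values were seen, as were the promoters with printed sequence. Members and lists were chosen with earlier results of these data known. An annotation of hg19 was not used here, and the design had foreseen coordinates only. Instead, RefSeq promoter windows (GRCh38.p14, 300 bases) were placed on the files' CpGs by the spacing of their CpGs, an approach added after seeing the files. A window was kept with 10 or more listed CpGs, each on a CG of the window, and a unique place. Of 12429 such windows, 3 lay on another chromosome than in RefSeq and were dropped, and 12392 of 12403 neighbouring pairs kept RefSeq's order. Distances to gene starts are from these places and gene lengths from RefSeq. Lengths were counted from the placed start, which need not be the gene's first start, so the ends of genes were not located. The listed genes were looked up in the placed windows, not within 1 kb of each start as first designed.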

Additional observations from a re-analysis of the deposited data

Results flagged for a closer look

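At 8 of the 24 bins with the largest rises or falls, the difference between day 3 and day 0 was unlike in the 2 genotypes, by 25 points or more at an adjusted p below 0.01 (z test on reads, adjusted over 96462 bins). The 24 bins were ranked by the WT difference, which is 1 of the 2 terms compared, so these values are a description. Values are the TKO step minus the WT step. Among rises they were -31.8 points at the TNRC18 bin chr7:5428001-5429000, -34.7 at the MINK1 bin chr17:4763001-4764000, -30.1 and -28.3 at the TRIO bins chr5:14487001-14488000 and chr5:14488001-14489000, -28.1 at the ZNF672 bin chr1:249141001-249142000, and -25.9 at chr2:6121001-6122000. In all 6 the level in TKO SC was above 75%, so TKO cells had less than 25 points to rise. Among falls they were 25.4 points at chr10:81024001-81025000, where TKO cells fell by 6.44 points (Fisher's exact test, adjusted p = 0.0136, not past the limit), and 28.4 points at chr1:152488001-152489000, where the TKO step was 0.41 points.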

How the results depend on the processing

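Each count depends on the settings. For the called WT bins (33 higher and 17 lower), a coverage minimum of 20 reads gave 21 and 8 and of 30 reads 20 and 5. With 3 or more CpGs per bin there were 80 and 51, with 10 or more 15 and 0, and with 500 bp bins 54 higher. A limit of 15 points gave 322 and 93 and of 40 points 0 and 0. Scaling the reads to the mean coverage of 1 CpG of the bin left 0 and 0; at any size 1 bin then passed the adjusted p, and 217 bins had an unadjusted p below 0.05. Plus strand reads alone gave 8 lower, minus strand reads alone 9, and CpGs covered in all 7 libraries 10. Shifting the bins by 500 bp, equal weights per CpG, leaving out CpGs of extreme coverage and correcting for the mitochondrial share of C kept the counts within 1.5 times. Of the 12 largest rises and 12 largest falls, none changed sign under a setting that covered it; other named bins were not followed. Only 13 of the 24 could be compared at 20 reads, 10 at 30 reads, 6 with 10 or more CpGs, 13 on the plus strand, 11 on the minus strand and 16 over CpGs covered in all 7 libraries. The 40-point limit and the scaled reads ended the calls of all 24, and otherwise, among those compared, 1 was lost with 3 or more CpGs, 1 at 20 reads, 2 with equal weights and 3 on the plus strand (-22.6, -24.5 and -21.6 points, all falls). Called CpGs fell to 96 higher and 21 lower at 40 points. For TKO CME minus TKO SC, 15 points gave 370 and 316 and 20 reads 14 and 17; for the change of the step, 356 and 641, and 13 and 27.

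The median shift by class of starting level, from the lowest class upward, changed as follows. Grouped by the mean of SC and CME it was 0.0485, 1.07, 2.20, 2.27, 0.83, 0.73 and 0.33 points, and grouped by TKO SC 0.0330, 0.35, 0.79, 1.06, 0.94, 0.75 and 0.63. With the strands split it was 0.99 at 5 to 20%, 0.79 at 60 to 80%, 0.64 at 80 to 95% and 0.67 at 95 to 100%. Corrected for the mitochondrial share, the lowest class gave 0 and the next 1.13. Equal weights per CpG gave 1.63 at 20 to 40%, 1.93 at 60 to 80%, 0.95 at 80 to 95% and -1.35 at 95 to 100%. A minimum of 30 reads gave 1.18 at 60 to 80%, 0.86 at 80 to 95% and -0.69 at 95 to 100%. The highest class was thus below 0 only where the same SC reads alone set the class and also entered the difference. The cause was not tested.

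The promoter count (41 higher, 1 lower) was 37 and 1 at 20 reads and 30 and 1 with 15 or more listed CpGs per window, both chosen after seeing the data. No paired analysis was possible because each group has 1 library.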
